A study of Homo sapiens with 6 samples.

Results

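The genes described here are 31 genes of glycolysis and of the response to low oxygen, taken by symbol from a table of 27234 genes, in which all 31 were found. They comprise 17 glycolytic enzymes, 4 genes for transport and for the control of pyruvate entry into mitochondria, the transcription factor subunit HIF1A, and 9 genes known to be induced by hypoxia-inducible factors (HIFs). RNA was measured in A673, a human line of Ewing sarcoma. Its EWS-FLI1 fusion joins a stretch of EWSR1 to the DNA-binding region of FLI1, an ETS transcription factor. Transfection was with an siRNA to FLI1 (siFLI1, 3 libraries) or with a scrambled one (siControl, 3 libraries), and RNA was taken after 48 h, and the comparison asks which of these genes differed between both treatments. All 6 libraries come from this single cell line, grown in medium with serum, and no label names a hypoxia treatment. The siRNA against FLI1 may act on both FLI1 and the fusion, which share sequence, and 3′ end reads do not tell these transcripts apart.

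Glycolysis splits glucose into pyruvate, which lactate dehydrogenase turns into lactate or which enters mitochondria through pyruvate dehydrogenase. HIF is a pair of subunits, of which HIF1A is hydroxylated by prolyl hydroxylases and degraded while oxygen is present, so its activity is set largely at the level of protein and not of RNA. When it accumulates it binds short elements with the core ACGTG or GCGTG and raises transcription of glycolytic enzymes, glucose transporters and genes such as ADM, CA9 and VEGFA.

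The promoters of 5 genes are shown as examples, because both sets, the enzymes and the HIF-induced genes, are known for such elements. A link between these elements and the changes in RNA was not tested. Each sequence is from RefSeq (GRCh38.p14), is written 5′ to 3′ on the strand of the gene, and ends at the base before the start of the deposited transcript. Capitals mark ACGTG or GCGTG on either strand, and where CACGTG occurs it matches ACGTG on both strands, so that these matches overlap. ADM, the gene of the vasodilator peptide adrenomedullin, has 1 match in the 157 bases shown (chr11:10304823-10304979, plus strand). The aldolase gene ALDOC has 3 separate stretches in 212 bases (chr17:28576934-28577145, minus strand). The phosphoglycerate kinase gene PGK1 has 3 in 171 bases (chrX:78103998-78104168, plus strand). The lactate dehydrogenase gene LDHA has 1 in 165 bases (chr11:18396101-18396265, plus strand). ANKRD37, which encodes an ankyrin repeat protein, has 1 stretch, CACGTG, in 95 bases (chr4:185396591-185396685, plus strand).
ADM: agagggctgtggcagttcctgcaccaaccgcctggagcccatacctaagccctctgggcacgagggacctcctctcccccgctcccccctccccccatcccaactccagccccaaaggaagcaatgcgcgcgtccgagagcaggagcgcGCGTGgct
ALDOC: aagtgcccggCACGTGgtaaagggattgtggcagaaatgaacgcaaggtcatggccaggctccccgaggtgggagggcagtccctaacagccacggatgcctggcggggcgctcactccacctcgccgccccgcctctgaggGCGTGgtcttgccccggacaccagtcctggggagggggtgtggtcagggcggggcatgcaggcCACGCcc
PGK1: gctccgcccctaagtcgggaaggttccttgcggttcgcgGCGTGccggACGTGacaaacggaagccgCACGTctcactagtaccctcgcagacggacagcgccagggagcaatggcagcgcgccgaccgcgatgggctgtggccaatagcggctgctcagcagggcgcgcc
LDHA: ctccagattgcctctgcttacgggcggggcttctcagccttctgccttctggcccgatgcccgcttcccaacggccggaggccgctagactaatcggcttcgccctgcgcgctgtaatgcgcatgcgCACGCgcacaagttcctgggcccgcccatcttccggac
ANKRD37: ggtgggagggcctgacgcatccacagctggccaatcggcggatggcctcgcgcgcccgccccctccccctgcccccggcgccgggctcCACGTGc

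RefSeq windows of 250 bases before the start site were matched to 28 of the 31 genes. ACGTG or GCGTG stood in 21 of these 28, against 43.2% of 35116 windows of the same length in the promoter table, where ACGTG stood in 18.5% and GCGTG in 32.2%. By set, 12 of 17 enzymes and 6 of 7 HIF-induced genes with a window held a match. Unlike the sequences shown, these windows were not cut at the start of the deposited transcript. For HK2, ALDOA, GAPDH and ENO1 the RefSeq start lay 1472, 11189, 859 and 406 bases inside the deposited transcript. Their whole windows, which held matches, thus lay within its span. CACGTG, which overlaps ACGTG, stood in 5 of the 28 windows and in 6.35% of all. GGAAGGAA, a pair of the GGAA units found in repeats that EWS-FLI1 is known to bind, stood in 0 of the 28 and in 3.06% of all windows, searched on both strands. These matches are a description of letters and not of binding.

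The libraries held between 417145 counts (siFLI1 replicate 3) and 1893606 counts (siFLI1 replicate 1). Counts over genes were 10.1% of the total in the file header for siFLI1 replicate 3, whose header total was the highest, and 41.2% to 61.0% for the other 5 libraries, and the part of this in the results was not tested. FLI1 was lower in every siFLI1 library (19.0, 42.5 and 24.1 CPM in replicates 1, 2 and 3) than in the siControl libraries (63.0, 69.1 and 62.4 CPM), with a log2 fold change of −1.16 ± 0.36 (SE) and an adjusted p of 0.17, which did not pass the threshold of 0.05. CPM are depth-scaled counts with TMM factors (trimmed mean of M values), log2 fold changes are siFLI1 over siControl, and adjusted p are from edgeR's quasi-likelihood test over 9420 genes. Positions of genes are those of the deposited transcripts on hg38, first to last base. All 8 Ewing sarcoma markers were detected in each library, at a summed 1269 to 1989 CPM in siFLI1 and 2865 to 4030 CPM in siControl. CCND1 made up a large part of these sums, and its groups overlapped (log2 fold change −1.18, adjusted p = 0.275). NR0B1 (−1.43, adjusted p = 0.025) and PRKCB (−1.17, adjusted p = 0.0369) passed the test as lower. The other markers had log2 fold changes below 0 without passing. Of 9 markers of other cell types, KRT5, MYOD1 and MYOG were at 0 in all libraries, and the summed level was 0.664 to 56.2 CPM in siFLI1 and 1.76 to 17.9 CPM in siControl. The highest sum was in siFLI1 replicate 3, where the leukocyte gene PTPRC had 16 counts, and its part in the results was not tested. siFLI1 replicate 3 and siControl replicate 1 stood apart from the other libraries: the first was the lowest library for 26.2% of all tested genes and the second for 19.1%, against 12.5% to 15.8% for the other 4. Values without both are given beside some of the results. As both were picked from these same data and 2 libraries a group remain, such values are a description and not support.

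Among the 31 genes, ADM rose after siFLI1 and no other gene passed the test in either direction. In bulk RNA a change in each cell and a change in the share of cells that hold a transcript cannot be told apart. Of all 9420 tested genes, 1.45% were called, 1.34% as higher and 0.117% as lower, and 30 of the 31 genes passed the filter on low counts, so that 1 call is 3.33% of those tested. The median log2 fold change was −0.02 over the 17 glycolytic enzymes and 0.75 over the 8 HIF-induced genes tested, beside 0.01 over all tested genes. For these 8, the median log2 difference from the siControl mean was 0.57, 1.07 and 0.10 in siFLI1 replicates 1, 2 and 3. It was −0.02, −0.19 and 0.08 in siControl replicates 1, 2 and 3, so siFLI1 replicate 3 lay close to siControl replicate 3. At an unadjusted p below 0.05, 5 of the 30 genes were higher (ADM, NDRG1, ANKRD37, HIF1A and ALDOC), beside 6.62% of all tested genes, and 1 was lower (KDM3A), beside 4.13%. The groups did not overlap with siFLI1 higher for 4 genes (ADM, BHLHE40, HIF1A and ALDOC), where the background was 8.93%, or with siFLI1 lower for 2 genes (PFKM and KDM3A), where it was 7.71%. Together these 6 genes are 20% of the 30 tested.

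**Figure D1:**
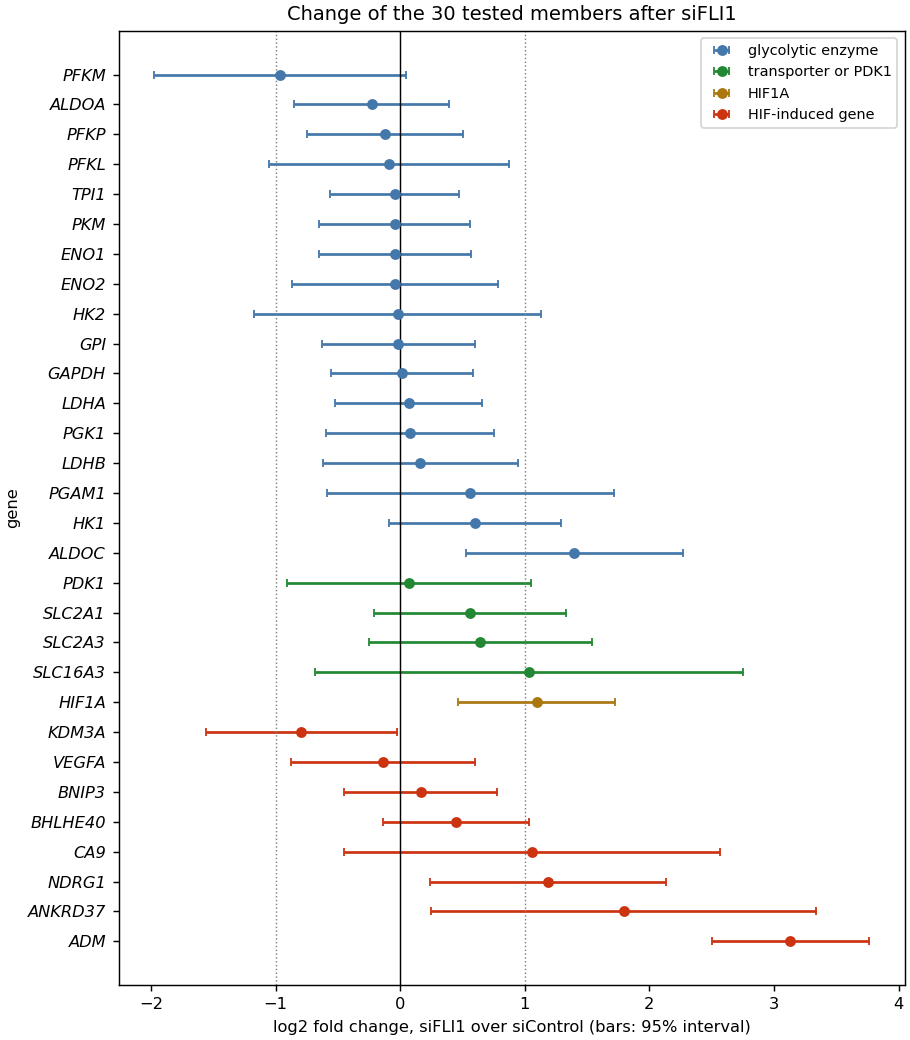
The x axis gives the log2 fold change of siFLI1 over siControl and the y axis the 30 tested genes, as points with 95% intervals from edgeR, coloured by role; dotted lines mark a 2-fold change either way. Most enzymes lie near 0, whereas ADM lies at 3.13 with an interval from 2.50 to 3.76.

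None of the 17 glycolytic enzymes passed the test, beside 1.45% of all tested genes. At so low a share, 0 calls among 17 genes do not set the enzymes apart. Of these enzymes 1 (ALDOC) was higher and 0 were lower at an unadjusted p below 0.05, and DESeq2 and limma-voom also called 0. GAPDH, which makes the NADH of glycolysis, had 1127, 973 and 999 CPM in siFLI1 replicates 1, 2 and 3 and 970.4, 987 and 1108 CPM in siControl replicates 1, 2 and 3. The groups overlapped, and its log2 fold change was 0.02 ± 0.27 (SE; 95% interval −0.55 to 0.59). The 95% interval lay within a 2-fold change either way for 11 enzymes (GPI, PFKP, ALDOA, TPI1, GAPDH, PGK1, ENO1, ENO2, PKM, LDHA and LDHB), or 64.7% of the 17, beside 26% of all tested genes. The median SE of the log2 fold change was 0.31 in the enzymes and 0.42 over all tested genes. For the other 6 enzymes (HK1, HK2, PFKL, PFKM, ALDOC and PGAM1) a 2-fold difference in at least 1 direction was inside the interval.

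The enzymes that phosphorylate glucose and fructose 6-phosphate at the start of the pathway varied among themselves. HK1, a hexokinase bound to mitochondria, was at 459.6, 337 and 228 CPM in the siFLI1 libraries and at 140.0, 290.5 and 249.6 CPM in the siControl libraries. Its groups overlapped, with a log2 fold change of 0.60 ± 0.32 (adjusted p = 0.548). HK2, the hexokinase induced in many tumours, had a log2 fold change of −0.02 ± 0.54, and its interval of −1.17 to 1.13 allowed a 2-fold difference in both directions.

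PFKM, the muscle form of phosphofructokinase (chr12:48105873-48146404), was at 11.2, 12.6 and 10.7 CPM in siFLI1 and at 31.2, 21.1 and 15.4 CPM in siControl. Every siFLI1 library was below every siControl library, by a log2 fold change of −0.96 ± 0.47 that did not pass the test (adjusted p = 0.495) and was −0.63 without both libraries that stood apart. Reads of PFKM may be shared with SENP1, which overlaps it on the opposite strand and had 133 counts over the 6 libraries, as no source used here states the use of strand in counting. The liver form PFKL had a log2 fold change of −0.09 ± 0.45, which was 0.40 without siControl replicate 1 and 0.51 without both libraries that stood apart, and the platelet form PFKP had −0.12 ± 0.29.

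ALDOC, the aldolase known best from brain (chr17:28573115-28576933), had the largest log2 fold change of the enzymes. It was at 48.6, 31.2 and 37.5 CPM in siFLI1 and at 15.6, 10.5 and 18.8 CPM in siControl. All siFLI1 libraries were above all siControl libraries, with means of 39.1 ± 8.82 and 14.99 ± 4.17 CPM (SD, n = 3 libraries each). The log2 fold change was 1.40 ± 0.41 (95% interval 0.53 to 2.27), and the gene did not pass the test (adjusted p = 0.136), also not with DESeq2 (0.0937) or limma-voom (0.103). Its widely used relative ALDOA had a log2 fold change of −0.23 ± 0.29 and overlapping groups, and its sign turned without both libraries that stood apart (0.10).

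In the later steps, PGK1, which makes ATP, was at 1502, 1136 and 886 CPM in siFLI1 and at 794, 1176 and 1365 CPM in siControl (log2 fold change 0.08 ± 0.31). LDHA, which makes lactate, was at 390.3, 260.4 and 230.3 CPM in siFLI1 and at 236, 271 and 339 CPM in siControl (0.07 ± 0.27). Both are standard HIF targets, and in both siFLI1 replicate 1 was the highest library while the groups overlapped. The isomerases GPI and TPI1 had log2 fold changes of −0.02 ± 0.29 and −0.04 ± 0.24. The enolases ENO1 and ENO2 had log2 fold changes of −0.04 ± 0.28 and −0.04 ± 0.39, and pyruvate kinase PKM −0.04 ± 0.28, which became 0.24 without siControl replicate 1 and 0.35 without both libraries that stood apart. PGAM1, the mutase between PGK1 and enolase, had few counts and a log2 fold change of 0.56 ± 0.54. LDHB, the form that favours pyruvate, had a log2 fold change of 0.16 ± 0.37, and its lowest library was siControl replicate 1 (873 CPM) with 1717 to 2271 CPM in the other 5. Without both libraries that stood apart it was −0.29. Several of these genes have processed pseudogenes whose reads could be shared, of which GENCODE release 29 names 62 for GAPDH, 13 for PGAM1 and 6 for LDHA.

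Summed over the 17 enzymes, the level was 7555, 6431 and 6174 CPM in siFLI1 (mean 6720 ± 734, SD) and 4865, 7090 and 7272 CPM in siControl (6409 ± 1340). The lowest sum was in siControl replicate 1, and the groups overlapped. No library was high or low for all enzymes at once. siControl replicate 1 was the highest library for 5 enzymes and the lowest for another 5, beside 20.4% and 19.1% of all tested genes. siFLI1 replicate 1 was the highest for 7 of 17 (41.2%), beside 13.4% of all tested genes. siFLI1 replicate 3 was the lowest for 6 of 17, beside 26.2% of all tested genes.

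**Figure D2:**
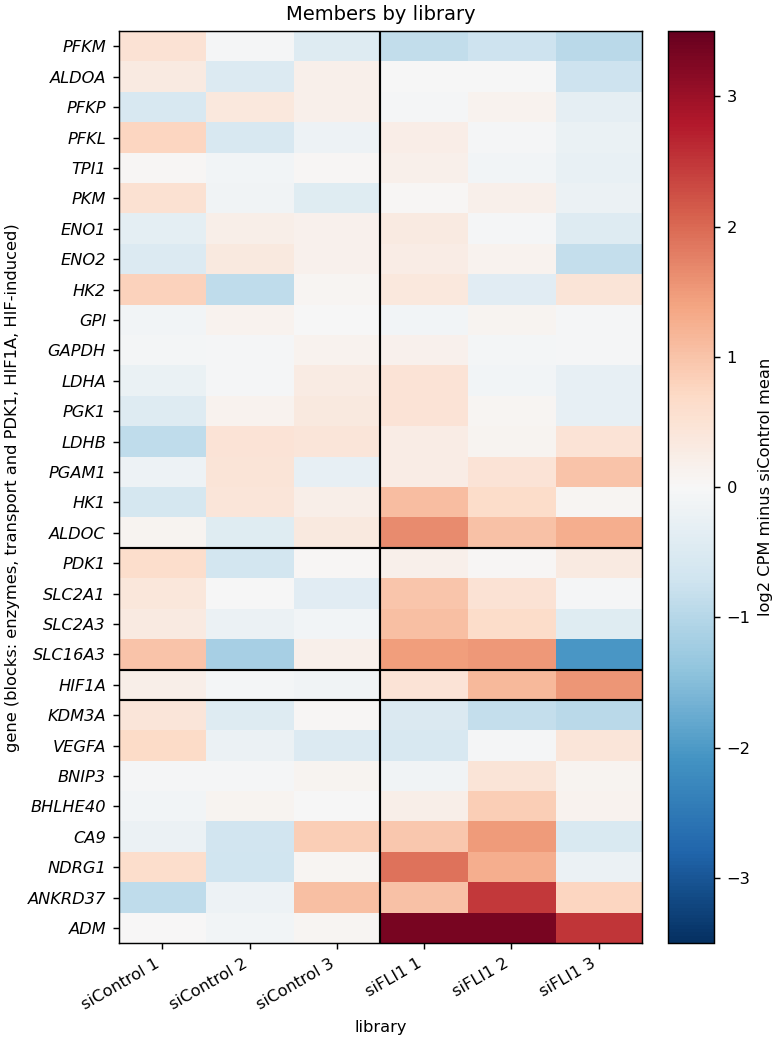
Rows are the 30 tested genes in 4 blocks (enzymes, transport and PDK1, HIF1A, HIF-induced) and columns the 6 libraries; colour gives log2 CPM minus the siControl mean. In all 3 siFLI1 libraries PFKM lies below and ALDOC above the siControl mean, and ADM is the darkest line.

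For the 7 pairs of related enzymes and transporters the log2 ratio of their counts within each library was compared, which does not depend on the scaling of libraries. The ratio of ALDOC to ALDOA was −1.93, −2.55 and −1.52 in siFLI1 and −3.85, −3.59 and −3.44 in siControl. It was higher in every siFLI1 library, by 1.63 on the log2 scale (exact permutation test, two-sided p = 0.1, adjusted over 7 pairs 0.35). The ratio of PFKL to PFKM was 1.22, 0.77 and 0.68 in siFLI1 and 0.31, −0.51 and 0.34 in siControl, higher in every siFLI1 library by 0.84 (exact p = 0.1, adjusted 0.35). With 3 libraries a group the smallest p this test can give is 0.1, so no pair could pass. The groups overlapped for the other 5 pairs, with differences of −0.41 for HK2 to HK1, 0.73 for PFKP to PFKM, −0.05 for ENO2 to ENO1, 0.24 for LDHB to LDHA and −0.02 for SLC2A3 to SLC2A1.

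**Figure D3:**
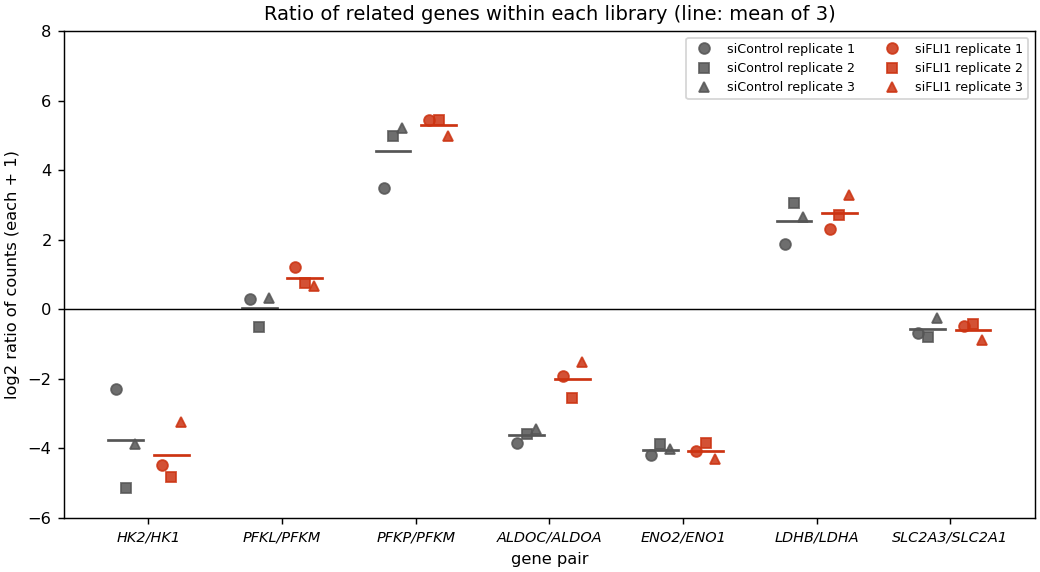
The y axis gives the log2 ratio of the counts of 2 related genes (1 added to each) in each library, for the 7 pairs on the x axis, with lines at the mean of 3 libraries. The siFLI1 points lie above all siControl points for ALDOC/ALDOA and PFKL/PFKM, and the points of both groups overlap for the other pairs.

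Glucose enters through SLC2A1 and SLC2A3, lactate leaves through SLC16A3, and PDK1 holds back pyruvate dehydrogenase. None of these 4 genes passed the test, beside 1.45% of all tested genes. Of the 4, 0 had an unadjusted p below 0.05, and none was called by DESeq2 or limma-voom. SLC2A1 was at 66.0, 47.8 and 32.1 CPM in siFLI1 and at 44.2, 32.8 and 24.8 CPM in siControl (log2 fold change 0.56 ± 0.36, adjusted p = 0.642). SLC2A3 was at 47.5, 35.2 and 16.1 CPM in siFLI1 and at 27.5, 18.7 and 20.5 CPM in siControl (0.64 ± 0.42, adjusted p = 0.646). In both, siFLI1 replicate 3 was the lowest siFLI1 library and the groups overlapped. Without both libraries that stood apart the log2 fold changes were 0.96 for SLC2A1 and 1.07 for SLC2A3, and neither passed the test (adjusted p = 0.245 and 0.233). SLC16A3 had 26, 23 and 0 counts in siFLI1 and 19, 2 and 6 in siControl, and 3 counts in siFLI1 replicate 3 would be 8.03 CPM. Its log2 fold change was 1.03 ± 0.80 (adjusted p = 0.72), and 2.31 without both libraries that stood apart (adjusted p = 0.159). PDK1 was at 19.9 to 24.1 CPM in siFLI1 and 11.7 to 30.2 CPM in siControl (0.07 ± 0.46).

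HIF1A, the oxygen-regulated subunit (chr14:61695401-61748259), was higher in siFLI1 without passing the test. It was at 131, 206 and 273 CPM in siFLI1 and at 107, 89.6 and 84.6 CPM in siControl. Each siFLI1 library was above each siControl library, and siFLI1 replicate 3, with the fewest counts, was the highest. The means were 203 ± 70.9 and 93.6 ± 11.5 CPM (SD, n = 3 libraries each), and the log2 fold change was 1.10 ± 0.29 (95% interval 0.47 to 1.72, adjusted p = 0.0982). Leaving out 1 library at a time gave log2 fold changes of 0.85 to 1.34 and adjusted p of 0.0582 to 0.36. DESeq2 gave an adjusted p of 0.0577 and limma-voom one of 0.141. Without both libraries that stood apart the log2 fold change of HIF1A was 0.94 (adjusted p = 0.121). The antisense gene HIF1A-AS2 overlaps it and had 44 counts over the 6 libraries, so a share of reads could belong to either.

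ADM (chr11:10304980-10307402) was the HIF-induced gene that rose. It was at 549.6, 552 and 313 CPM in siFLI1 and at 54.9, 50.4 and 57.3 CPM in siControl. All siFLI1 libraries were far above all siControl libraries, and siFLI1 replicate 3 was the lowest of them. The means were 472 ± 137 and 54.2 ± 3.51 CPM (SD, n = 3 libraries each), an 8.70-fold difference, resting on 983, 831 and 117 counts against 102, 86 and 67. The log2 fold change was 3.13 ± 0.29 (95% interval 2.50 to 3.76, adjusted p = 2.74e-05). Among the 126 genes that rose, ADM was number 34 by log2 fold change and number 13 by p. Its log2 fold change was 3.00 to 3.35 when 1 library was left out and 3.35 without both libraries that stood apart, and it passed the test in each of the 15 alternatives.

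**Figure D4:**
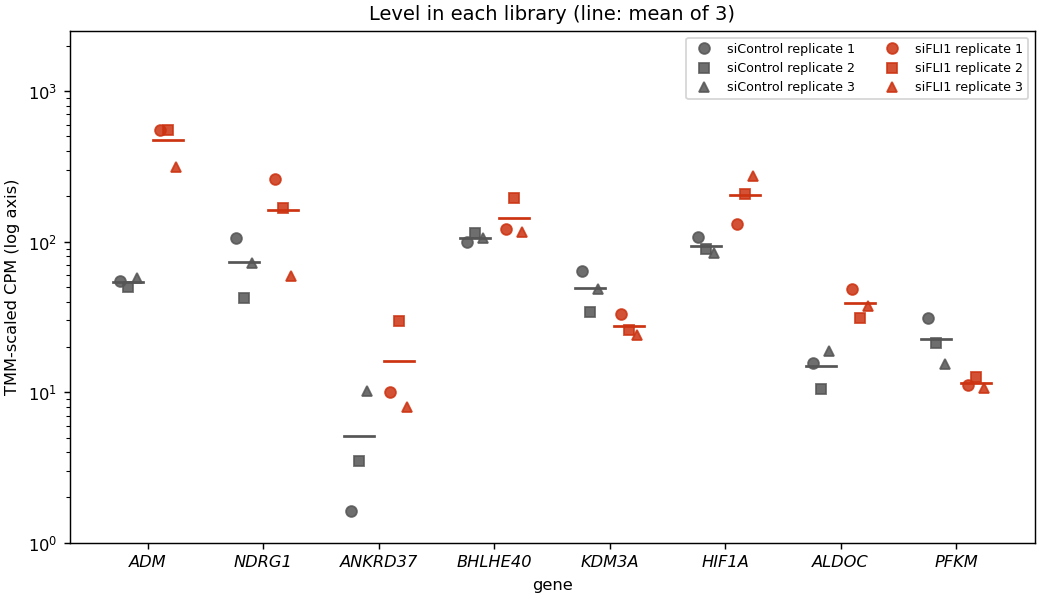
The y axis gives TMM-scaled CPM on a log axis for 8 genes on the x axis, with 1 point for each library and lines at the mean of 3. ADM shows the widest gap between the groups (54.2 and 472 CPM on average), and NDRG1 and ANKRD37 overlap between the groups.

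The other HIF-induced genes went in both directions and none passed the test. NDRG1, a stress-induced gene, was at 259, 168 and 58.9 CPM in siFLI1 and at 105, 42.2 and 72.6 CPM in siControl. siFLI1 replicate 3 lay among the siControl libraries, and the log2 fold change was 1.19 ± 0.44 (adjusted p = 0.308). NDRG1 passed without siFLI1 replicate 3 (1.54, adjusted p = 0.0403), without both libraries that stood apart (1.90, adjusted p = 0.00449) and with no filter on low counts (1.16, adjusted p = 0.0189). The libraries that stood apart held its lowest siFLI1 and its highest siControl value, so leaving them out widened the gap by construction. Leaving out siFLI1 replicate 1 instead lowered the value to 0.69 (adjusted p = 0.671).

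ANKRD37, whose promoter is shown above, was at 10.1, 29.9 and 8.03 CPM in siFLI1 and at 1.62, 3.51 and 10.3 CPM in siControl. The groups overlapped, and siFLI1 replicate 2 was the highest. The log2 fold change was 1.79 ± 0.72 (adjusted p = 0.373) and 0.90 to 2.68 when 1 library was left out. Its row overlaps UFSP2 on the opposite strand, which had 236 counts over the 6 libraries. BHLHE40, a transcriptional repressor, was at 122, 194 and 115 CPM in siFLI1 and at 99.1, 114 and 106 CPM in siControl. The groups did not overlap, but siFLI1 replicate 3 and siControl replicate 2 lay close together, and the log2 fold change was 0.45 ± 0.27 (adjusted p = 0.62). Its antisense gene BHLHE40-AS1 had 100 counts over the 6 libraries.

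KDM3A, a histone demethylase, was at 33.0, 25.9 and 24.1 CPM in siFLI1 and at 64.1, 34.0 and 48.7 CPM in siControl. All siFLI1 libraries lay below all siControl libraries, against the direction of ADM, but siFLI1 replicate 1 and siControl replicate 2 lay close together. The log2 fold change was −0.79 ± 0.36 (adjusted p = 0.443) and was −0.48 without both libraries that stood apart. CA9, a carbonic anhydrase of the cell surface, was at 10.1, 15.3 and 2.68 CPM in siFLI1 and at 3.77, 2.34 and 9.40 CPM in siControl (1.06 ± 0.70, adjusted p = 0.657). VEGFA, the growth factor of blood vessels, was at 75.5, 108 and 149.9 CPM in siFLI1 and at 179, 96.6 and 80.3 CPM in siControl. Its groups overlapped, and the log2 fold change of −0.14 ± 0.35 was 0.25 without siControl replicate 1. BNIP3, a mitophagy receptor, had a log2 fold change of 0.17 ± 0.29. GENCODE release 29 names 39 pseudogenes for BNIP3, whose reads could be shared. EGLN3, a prolyl hydroxylase that acts on HIF, had 1, 0 and 1 counts in siFLI1 and 1, 0 and 0 in siControl, so no fold change is given.

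Summed over the 9 HIF-induced genes, with the untested EGLN3 included, the level was 1115, 1177 and 739 CPM in siFLI1 (mean 1010 ± 237, SD). It was 567, 402 and 449 CPM in siControl (472 ± 84.9). Without ADM it was 565, 624 and 426 CPM in siFLI1 (538 ± 102) and 512, 351 and 391 CPM in siControl (418 ± 83.4). The groups did not overlap with ADM in the sum and overlapped without it. siFLI1 replicate 2 was the highest library for 5 of the 8 tested genes (62.5%), beside 13.2% of all tested genes. The median log2 fold change of 0.75 over these 8 was 0.35 without that library.

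Genes around these were described from lists of general knowledge, chosen with earlier results of these data known. Of 39 other genes of glycolysis and pyruvate use, 17 were tested and 1 rose: PDP1, the phosphatase that activates pyruvate dehydrogenase, was at 249, 199.96 and 118 CPM in siFLI1 and at 77.5, 45.1 and 84.6 CPM in siControl. The log2 difference of PDP1 was 1.48 ± 0.33 (adjusted p = 0.0369; 0.0824 with scaling by total counts), and this 1 call is 5.88% of the 17, beside 1.34% of all tested genes called as higher. PDP1 passed without siFLI1 replicate 3 but lost the call when any of the other 5 libraries was left out (highest adjusted p 0.211). Of 16 HIF subunits and oxygen-sensing genes 12 were tested and none passed, and the smallest p were those of ELOB (0.60 ± 0.31, adjusted p = 0.539), CITED2 (−0.49 ± 0.27, adjusted p = 0.58) and HIF1AN (1.10 ± 0.64, adjusted p = 0.603). Of those 12, 0 had an unadjusted p below 0.05. As 1.45% of all tested genes were called, 0 calls among 12 do not set this list apart.

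Of 42 other hypoxia-responsive genes, 33 were tested, 5 rose and none fell. Lysyl oxidase LOX rose by 3.57 ± 0.31 on the log2 scale, from 56.8 ± 18.2 to 675 ± 81.2 CPM (adjusted p = 1.87e-05). Its relative LOXL2, like LOX a crosslinker of collagen, rose by 2.38 ± 0.30 (adjusted p = 0.000436). P4HA2, a collagen prolyl hydroxylase subunit, rose by 2.35 ± 0.32 (adjusted p = 0.000788). CA12, a carbonic anhydrase, rose by 1.80 ± 0.41 (adjusted p = 0.0475), a call lost when any 1 of the 6 libraries was left out (0.0901 to 0.181), and also with total counts (0.105), upper quartile scaling (0.0542), a filter of 5 CPM (0.05) or without both libraries that stood apart (0.101). The 5 genes that rose are 15.2% of the 33 tested, beside 1.34% of all tested genes called as higher. As the list was chosen with earlier results of these data known, this share was not tested.

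Of 8 genes of the pentose phosphate pathway all were tested and none passed, with 0 at an unadjusted p below 0.05. As 1.45% of all tested genes were called, 0 calls in so short a list do not set it apart. The smallest p were those of H6PD (log2 fold change 0.76 ± 0.51, adjusted p = 0.665), PGD (−0.34 ± 0.31, adjusted p = 0.782) and RPE (−0.28 ± 0.35, adjusted p = 0.85). Of 28 genes of pyruvate dehydrogenase and the tricarboxylic acid cycle, 27 were tested and none passed, beside the same 1.45%. Of these 27, 0 had an unadjusted p below 0.05. The smallest p there were those of SUCLA2 (0.86 ± 0.42, adjusted p = 0.493), IDH2 (0.66 ± 0.34, adjusted p = 0.529) and IDH3G (−0.85 ± 0.52, adjusted p = 0.626). DESeq2 and limma-voom called 0 in both lists and among the oxygen-sensing genes. The median log2 fold change was 0.20 in the first of these lists and −0.05 in the second.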

How the data were processed

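RNA of A673 cells was read at its 3′ ends in 6 libraries by a bulk form of MARS-seq, per the labels' protocols. The authors deposited raw counts per gene over exons in 1 table. Per the submitters' processing notes, bcl2fastq, HISAT 0.1.5, HOMER and the build hg38 were named, with no role or order. The use of strand in counting and the collapsing of barcodes are not given in the sources consulted, and PCR copies may be among the counts.

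Each column matched 1 sample title. Separate cultures are not stated for the replicates, so p-values reflect only how these libraries vary, possibly for technical reasons. Total counts were 417145 to 1893606 per library. In R 4.3.3 with edgeR 4.0.16, genes were kept by filterByExpr (minimum count 10, minimum total 15), scaled by TMM and tested by glmQLFit (robust) and glmQLFTest, two-sided, with Benjamini-Hochberg adjustment over all 9420 tested genes and a threshold of 0.05. SE and 95% intervals were derived from the F statistic. Ratios within a library added 1 to each count. The main edgeR fit was tested on simulated counts with known changes, and the other fits and steps were not. The alternatives were other scalings and filters, DESeq2 1.42.0, limma-voom (limma 3.58.1), a replicate block, a threshold of 0.01, leaving out libraries, and leaving out both that stood apart.

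All 31 genes are accounted for. Values by library are given for those past the threshold, with no overlap or with an unadjusted p below 0.05, and for some others chosen to show each step. Of the other lists, genes past the threshold are named, otherwise the 3 with the smallest p. 1 gene that this rule selects is not reported here. The genes and lists were chosen with earlier results of these data known. Promoters were matched by symbol to a RefSeq table.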

Additional observations from a re-analysis of the deposited data

How the results depend on the processing

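Of the refit values of the 30 tested genes, 440 kept the call, with the same sign or a turned sign and a shift below the SE. In 7 the sign turned with a larger shift, with no call in either fit. In 3 NDRG1 gained a call. The size of a shift with the same sign was not limited. ADM was called in each refit. The number of the 31 genes called was 1, and was 2 with no filter and 2 without both libraries that stood apart, and 1 to 2 when 1 library was left out. The counts for the HIF-induced genes were equally 2, 2 and 1 to 2. Their median log2 fold change of 0.75 ranged from 0.35 to 0.96 when 1 library was left out, lowest without siFLI1 replicate 2. The enzymes' median stayed between −0.14 and 0.06 in all alternatives, and scaling by total counts moved the median of all genes from 0.01 to −0.12. Among the other glycolysis and pyruvate genes the 1 call became 0 with total counts, 2 with no filter, 0 with the replicate number as a block and 0 to 1 with 1 library left out, and among the other hypoxia-responsive genes 5 became 3 to 4. Over the whole table, 137 calls became 368 with no filter, 213 with DESeq2, 72 at a threshold of 0.01, 101 with the replicate block, and 65 to 126 when 1 library was left out, lowest without siControl replicate 2. Same-numbered libraries did not deviate together (correlations −0.03, −0.01 and −0.05), so the numbers were not taken as pairs. Under the replicate block the calls of PDP1 (adjusted p = 0.0791) and CA12 (0.0942) were lost. Depth limits genes with few counts, such as SLC16A3, ANKRD37, CA9 and EGLN3, most in siFLI1 replicate 3, where 3 counts are 8.03 CPM. The 95% interval lay within a 2-fold change for 13 of the 30 genes.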
